A study of Drosophila melanogaster with 3 samples.

Results

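Intergenic distal Dip3 peaks are the reproducible Dip3 sites that lie between genes and away from promoters. A peak was taken from the set that the authors thresholded by irreproducible discovery rate (IDR), which scores how well the order of regions holds between replicates. It was kept when its summit, the position of highest signal, was more than 500 bp from every protein-coding transcript start and in no gene body of any class, with transposable elements not counted as genes. Of the 3741 peaks of the IDR set, 361 met this rule (9.65%). The others were 2147 promoter peaks, with a summit at most 500 bp from a protein-coding start, 1115 intronic distal peaks and 118 exonic distal peaks.

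The data came from chromatin immunoprecipitation and sequencing (ChIP-seq) on whole embryos of Drosophila melanogaster, 0 to 24 h old and of both sexes. The only group was a transgenic line, labelled Dip3-GFP, that stably expresses Dip3 with eGFP at its C-terminus, and an antibody against GFP was used for the precipitation. The labels name Dlip3 as the gene that the line targets, and give 3 biological replicates with chromatin sonicated to between 200 and 800 bp. No untagged line or second condition was analysed here, and the sources used here do not give the promoter that drives the fusion or whether untagged Dip3 was present.

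Dip3 belongs to the family of proteins with a MADF domain, which contacts DNA, and a BESS domain, which contacts other proteins, and it is known as a partner of the Rel-family factor Dorsal. In flies, sites between genes and away from promoters include enhancers, insulators, starts of non-coding RNAs and starts that the annotation does not hold. Insulator proteins such as CTCF and su(Hw) often bind there, while DRE and BEAF-32 motifs are typical of the promoters of broadly expressed genes. Whole embryos mix cell types and ages, so that strong binding in few cells and weak binding in many cannot be told apart. Sequencing depth was unknown, since peak lists hold no read counts.

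The sequences under the strongest of these peaks are shown first. They are examples of the windows in which base composition and short words were counted later, over all members. Each runs from 50 bases before to 50 bases after the summit, read from Release 6 of the genome (dm6, RefSeq), with positions counted from 1. The peak is named after the nearest protein-coding start, which is a label and says nothing about regulation. The set holds the 8 peaks of highest signal that every replicate ranked among its 3741 strongest regions, leaving out 1 chromosome arm whose sequence is not printed, and adds CG7484 as a further strong carrier of the word AAAGTA. Capitals mark AAAGTA, read on either strand.
eEF1gamma, chr3R:29214391-29214491, plus strand: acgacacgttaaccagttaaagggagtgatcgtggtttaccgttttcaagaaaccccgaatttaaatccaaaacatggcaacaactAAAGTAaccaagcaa
CG17896, chrX:493955-494055, plus strand: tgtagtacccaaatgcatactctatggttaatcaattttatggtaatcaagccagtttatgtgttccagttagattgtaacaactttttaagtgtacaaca
tara distal, chr3R:16222442-16222542, plus strand: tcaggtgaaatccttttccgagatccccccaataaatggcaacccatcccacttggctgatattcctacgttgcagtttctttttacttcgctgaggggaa
chinmo, chr2L:1638730-1638830, plus strand: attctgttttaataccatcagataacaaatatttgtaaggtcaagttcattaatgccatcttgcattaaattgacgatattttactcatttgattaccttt
tara proximal, chr3R:16224453-16224553, plus strand: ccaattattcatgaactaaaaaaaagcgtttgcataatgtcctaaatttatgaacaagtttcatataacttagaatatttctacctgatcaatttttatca
chinmo distal, chr2L:1632775-1632875, plus strand: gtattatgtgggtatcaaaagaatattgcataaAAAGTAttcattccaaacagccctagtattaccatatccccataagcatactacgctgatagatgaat
sp3, chr3R:21520331-21520431, plus strand: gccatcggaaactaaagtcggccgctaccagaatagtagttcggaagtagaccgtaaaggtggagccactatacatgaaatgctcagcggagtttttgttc
CG6163, chr3L:11353155-11353255, plus strand: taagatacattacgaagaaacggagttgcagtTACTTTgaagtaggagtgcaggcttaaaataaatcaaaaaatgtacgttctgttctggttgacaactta
CG7484, chr3L:17658531-17658631, plus strand: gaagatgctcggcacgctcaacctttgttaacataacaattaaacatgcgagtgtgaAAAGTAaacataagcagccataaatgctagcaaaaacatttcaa
Of these 9 windows, 4 held the word, among them that of CG7484, which was added for it. Over all members the word stood in 62 of 361 summit windows (17.2%). The tara proximal window held 24.8% G+C and both chinmo windows 26.7 and 33.7%, while the sp3 window held 47.5%, so the strong members differed widely in base composition.

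A second set shows strong members with a match to the core of the CTCF motif, AGNNGGCGC in this spelling, since CTCF had the highest ratio of summit to flank among the insulator motifs searched. Capitals mark the match on either strand.
jp, chr2L:9567458-9567558, plus strand: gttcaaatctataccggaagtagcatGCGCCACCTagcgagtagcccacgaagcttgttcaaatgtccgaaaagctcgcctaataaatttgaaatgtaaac
Sox21a, chr3L:14111572-14111672, plus strand: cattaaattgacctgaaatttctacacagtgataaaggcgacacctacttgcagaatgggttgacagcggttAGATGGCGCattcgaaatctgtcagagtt
Esyt2, chr3R:24557054-24557154, plus strand: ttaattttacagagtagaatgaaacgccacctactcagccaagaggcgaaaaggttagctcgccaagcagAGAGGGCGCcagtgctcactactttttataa
Sid, chr3R:28672345-28672445, plus strand: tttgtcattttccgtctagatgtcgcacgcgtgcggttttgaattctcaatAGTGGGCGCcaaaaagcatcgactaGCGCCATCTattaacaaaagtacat
The Sid window held 2 matches. The Esyt2 window lay between the annotated U6 spliceosomal RNA genes snRNA:U6:96Ab and snRNA:U6:96Ac. Copies of U6 are nearly identical, so reads may be shared between them, and their part in this peak was not tested.

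The intergenic distal peaks covered a wide range of strength. Their signal, the value that the authors' caller gave each peak, ran from 85.1 to 1036, with a median of 125. The median was 132 for intronic distal and 150 for promoter peaks. Split by signal into 4 equal parts from strongest to weakest, the IDR set held 20.2, 22.7, 28.0 and 29.1% of the members. The weaker parts thus held more of them, as they did of intronic distal peaks (20.7, 24.3, 25.7 and 29.3%). Promoter peaks went the opposite way (28.3, 25.8, 24.0 and 21.9%).

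The strongest member (signal 1036) lay in 3R at 29214247 to 29214604, 5731 bp upstream of eEF1gamma, which encodes a subunit of the translation elongation factor. The non-coding RNA gene lncRNA:CR31044 started 121 bp from its summit. The peak ranked 48, 27 and 19 in replicates 1, 2 and 3, so all of them placed it near the top.

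The next of the members that were strong in every replicate (963) lay on X between the divergent genes CG17896 and CG17778, with its summit 510 bp from the start of CG17896, just outside the promoter limit. It ranked 35, 25 and 50. A pair of strong members lay upstream of tara, which encodes a nuclear regulator of transcription and the cell cycle. The distal one (900) lay 3159 bp from the start and ranked 47, 49 and 39, and the proximal one (578) lay 1148 bp from it and ranked 106, 139 and 128. Every replicate placed the distal peak above the proximal one. The non-coding gene lncRNA:CR45643 lay between them, with its edges 903 bp from the distal and 649 bp from the proximal summit. An IDR peak that is not a member also lay between them, 911 and 1100 bp from these summits.

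Other strong members were near genes of varied function. A peak of signal 655 lay between the convergent genes blw and CycB, which encodes cyclin B, and ranked 85, 98 and 95. One of 505 lay 547 bp upstream of sp3 and ranked 170, 136 and 192. A peak of 417 lay near CG3149 and ranked 155, 302 and 416, while one of 412, in a cluster of alpha-esterase genes near alpha-Est9, ranked 326, 169 and 364. These last 2 peaks spanned more ranks than the peaks named before them. The peak 758 bp upstream of jp, the junctophilin gene (382), ranked 621, 301 and 184. One near noc, which encodes a zinc finger protein (411), lay 11902 bp from the start between a pair of non-coding genes and ranked 219, 244 and 460.

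**Figure D1:**
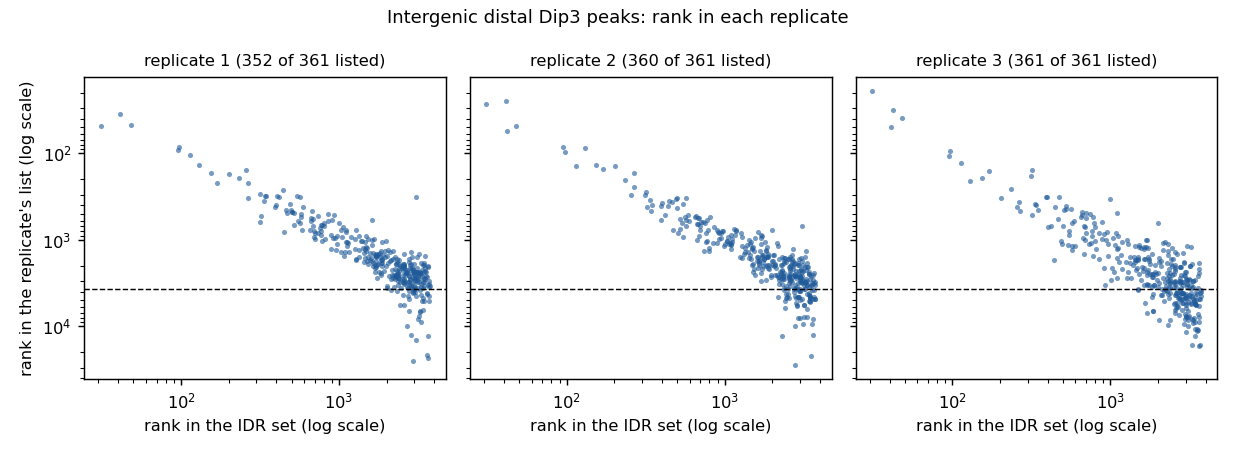
Rank of each intergenic distal peak in the IDR set (x axis, log scale) against the rank of the best overlapping region in the list of each replicate (y axis, log scale, strongest at the top), with the 3741st rank dashed. The 352, 360 and 361 listed members follow the IDR rank closely at the strong end and spread out at the weak end, where 43.6% and 6.67% of members in the last 2 of 4 parts by signal are above the dashed line in all replicates.

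Peaks also came in groups. The chinmo gene encodes a BTB zinc finger protein that sets temporal identity in neurons. Between chinmo and RFeSP, the gene of an iron-sulphur subunit of mitochondrial complex III, 6 members stood over 15114 bp of 2L, in the gap between lncRNA:CR44603 and lncRNA:CR45695. In order along the arm their signals were 100, 257, 548, 368, 656 and 431. The strongest ranked 92, 85 and 108, and 5 of the 6 were in the 3741 strongest regions of every replicate. A seventh member (131) lay beyond lncRNA:CR45695, 1576 bp from the chinmo start.

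Groups of 3 or more members with neighbouring summits at most 5000 bp apart numbered 9. The group near CG6163 on 3L held 5 members over 4453 bp, with signals of 221, 156, 156, 484 and 95.4. The first 2 of them overlapped the same region of each replicate, so they are not separate observations there. In the group between CG7484 and Crtc, which encodes a coactivator of CREB, a peak of 460 that ranked 174, 142 and 326 stood between peaks of 96.6 and 149. The scyl group (3 members, up to 197), the group near Hacd1 and the rhodopsin gene Rh5 (4 members, up to 238) and the group between CG5958 and CG5973 (3 members, up to 153) were weaker. The group near CG15283 held 3 members with signals of 86.1 to 90.3, and none of them was in the strongest regions of all replicates.

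A pair of groups lay near Psc and RYBP. Between CG13321 and Psc, the gene of a core subunit of Polycomb repressive complex 1, stood 3 members with signals of 242, 135 and 90.5. Near RYBP, whose product binds that complex, 3 members had signals of 99.9, 143 and 163. A further member (266), 4203 bp from the Psc start and 170 bp from the start of lncRNA:CR44339, was not listed by replicate 1 and ranked 528 and 479 in replicates 2 and 3. One member (250) lay 752 bp from ph-d, another gene of the same complex.

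In all, the 361 members had 303 different nearest genes, and 39 genes were nearest to at least 2 members. Overlapping neighbours made up 5 pairs, and 10 members shared a replicate region with another member. The sequence windows used below did not overlap. Of all members, 87 (24.1%) had another IDR summit within 2 kb, against 391 of 1115 intronic distal peaks (35.1%) and 26.5% of promoter peaks. The difference of -11.0 percentage points from the intronic distal peaks passed the test (two-sided Fisher's exact test, p = 0.0001, n = 361 and 1115). Promoter peaks count among the other summits, and intronic distal peaks lay nearer to protein-coding starts (median 2226 against 3136 bp). The part of that distance in the difference was not tested. The p-values over regions concern these lists alone, without the variation from one embryo collection to the next, and neighbouring regions are not independent.

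Members were also counted by the list that held their nearest gene. Of the 239 listed symbols, 10 had no match in the annotation used here and are not counted. Of 12 lists of genes, 4 held the nearest gene of 0 members, namely those of Hox, Toll and Dorsal, proneural, and insulator and housekeeping promoter factor genes. The list of anteroposterior segmentation genes had 4 members, or 1.11%, against 0.0897% of intronic distal and 0.0466% of promoter peaks. They included a peak of 215 near slp2, a pair-rule gene, and peaks of 119 and 100 near ems, a head gap gene. The dorsoventral list had 2 members (0.554%), both near the T-box gene Doc2 (193 and 110), against 0.897% of intronic distal and 0.0932% of promoter peaks.

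Signalling genes were nearest to 4 members (1.11%), against 0.807% of intronic distal and 0.326% of promoter peaks. These genes included the Hedgehog receptor gene ptc (155), the ligand gene Wnt4 (151) and upd1, a ligand gene of the JAK/STAT pathway (131). Genes of cell death and stress response were nearest to 4 members (1.11%), against 0.897% of intronic distal and 0.140% of promoter peaks. The 4 members were 2 peaks at the bZIP gene Atf3 (301 and 93.0) and 2 at Myc (200 and 98.6). Those at Myc lay 12627 and 17787 bp from its start. Muscle and mesoderm genes had 2 members (0.554%), against 0.538% of intronic distal and 0.279% of promoter peaks. They lay at lmd (165), a regulator of myoblast fate, and at the muscle actin gene Act57B (90.8). The nuclear receptor list had 1 member (0.277%), 666 bp from Hr38 (141). It held the nearest gene of 1.61% of intronic distal peaks (18 peaks at 6 genes) and of 0.233% of promoter peaks. The Polycomb and trithorax list, which does not hold RYBP, was nearest to 2 members (0.554%), at Psc and ph-d, against 0.538% of intronic distal and 0.512% of promoter peaks. The MADF-BESS family had 1 member (0.277%), 7079 bp from hng3 (106), against 0.0897% of intronic distal and 0.279% of promoter peaks. These counts are too small to set the classes apart, and no test of them was made.

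In bp, members lay nearer to gene starts than weak regions between genes, and in shorter gaps. The comparison set, called the background regions, held 2568 regions that met the same location rule, overlapped none of the IDR peaks and came from the lower 50% of the authors' relaxed list from pooled reads. The median distance to the nearest protein-coding start was 3136 bp for members, with a range of 501 to 59515 bp, and 5083 bp for background regions. Intronic distal peaks lay nearer still, at a median of 2226 bp. Between 500 and 1000 bp lay 70 members (19.4%, exact Clopper-Pearson 95% interval 15.4 to 23.9, here and below for counting error only) and 8.41% of background regions (7.37 to 9.55). Beyond 10 kb lay 61 members (16.9%, 13.2 to 21.2) and 28.0% of background regions (26.3 to 29.8). The intervals of neither bin overlapped, and the distances were not tested further. The gap between the genes on both sides had a median of 6598 bp for members and 12251 bp for background regions. As a share of that gap, the distance to the nearer gene edge was similar, with medians of 0.252 for members and 0.257 for background regions.

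**Figure D2:**
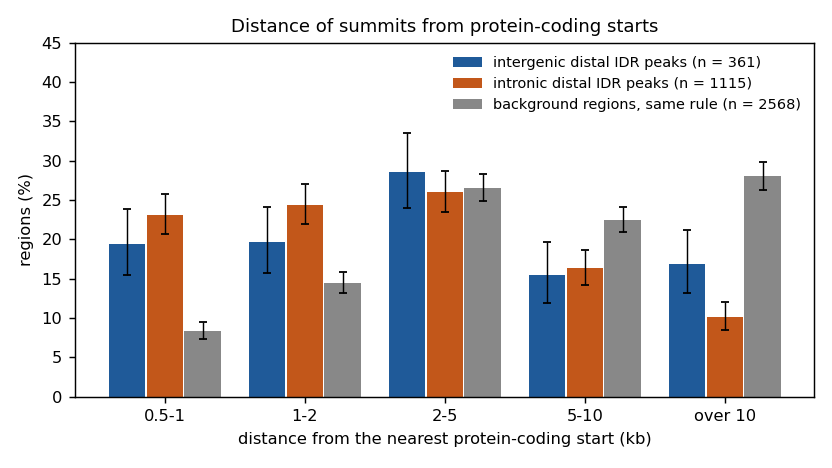
Share of regions (y axis, percent, with exact 95% intervals) by distance of the summit from the nearest protein-coding start (x axis, kb). Intergenic distal IDR peaks exceed the background regions at 0.5 to 1 kb (19.4 against 8.41%) and fall below them beyond 10 kb (16.9 against 28.0%). Intronic distal IDR peaks, also shown, depart further from the background in both bins (23.1 and 10.1%).

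The 3 members farthest from a start had signals of 93.5 to 142. The farthest had Cyp12e1 as its nearest protein-coding start, at 59515 bp, with a signal of 93.5, and its neighbouring gene on the right was hth, a homeodomain gene. It still ranked 3551, 3029 and 3655 and was thus inside the top lists of all replicates. The next were CG6414 at 39726 bp (118) and CG43245 at 36699 bp (142). At the near edge, the peaks just inside the limit were 501 bp from CG42808, 502 bp from for and 503 bp from Cyp28d1, with signals of 162, 107 and 107. Those just outside it were 490 bp from Dyro, 489 bp from Sqor and 484 bp from CrebA, with signals of 129, 182 and 155.

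Starts of non-coding genes were more frequent near members than near background regions. A non-coding start lay within 500 bp of the summit in 29 members (8.03%) and in 72 background regions (2.80%), a difference of 5.23 percentage points (two-sided Fisher's exact test, exact adjusted p = 3.43e-05 over 15 comparisons added after seeing the data). Of the 29, 27 were classed as ncRNA, 1 as tRNA and 1 as snRNA. The rule used only protein-coding starts, so these could lie close to a member. Members also lay nearer to protein-coding starts, and the part of that distance in the difference was not tested.

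After the peak at lncRNA:CR31044, the strongest of these were near asRNA:CR45999 beside CG34112 (381), Uhg4 beside Boot (339), lncRNA:CR45668 beside the cytoplasmic actin gene Act5C (314) and lncRNA:CR44676 (296). Uhg4, a host gene of small nucleolar RNAs, started 67 bp from the summit. The peak ranked 394, 588 and 321. A weaker peak (114) stood 60 bp from the start of Uhg1, another such host gene, but replicate 1 did not list it. Further members of this kind, named after their values were seen, lay near lncRNA:flam, the precursor of a cluster of piRNAs (144), and between lncRNA:CR43928 and Thor, the gene of a translation inhibitor (137).

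The orientation of the neighbouring genes did not pass the test at the limit of 500 bp. Divergent neighbours flanked 111 members (30.7%) and 24.9% of background regions (exact adjusted p = 0.0609, same tests and adjustment). A summit was upstream of its nearest start in 243 members (67.3%) and in 61.5% of background regions (exact adjusted p = 0.092). Both passed with a limit of 200 bp, where the differences were 9.57 points for divergent neighbours (exact adjusted p = 1.25e-05) and 14.9 points for upstream summits (exact adjusted p = 1.76e-11). Divergent neighbours also passed without replicate 3 (8.57 points, exact adjusted p = 0.015). With a limit of 1000 bp neither share passed. The differences were then 3.64 points for divergent neighbours (exact adjusted p = 0.284) and 1.68 points for upstream summits (exact adjusted p = 0.657). The rule leaves out gene bodies, so a summit close to a start lies mostly upstream of it. Members lay nearer to starts than background regions, and the part of that distance in the upstream share was not tested. An annotated transposable element covered 1 summit, near the cell adhesion gene ed (169), against 32 of 2568 background regions (two-sided Fisher's exact p = 0.115) and 3 intronic distal peaks (exact p = 1).

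Along the genome, 2L had the highest density of members among the large arms. Per Mb of sequence that met the location rule, 2L held 13.0 members (exact Poisson 95% interval 10.5 to 16.0). X held 10.3 (7.80 to 13.4), 3L 8.87 (7.06 to 11.0), 3R 8.55 (6.63 to 10.9) and 2R 8.16 (6.26 to 10.5), against 9.69 over all arms. Chromosome 4 had 4 members, near lgs, zfh2, Asator and ey, which gives 15.8 with a wide interval of 4.30 to 40.4. The intervals overlap in part, and the arms were not tested against each other.

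The replicates agreed well on the strong members and less on the weak ones. The 3741 strongest regions of a replicate are called its top list. Of the 361 members, 194 (53.7%, 48.4 to 59.0) overlapped the top list of every replicate, against 58.7% of the whole IDR set. In the 4 parts by signal from strongest to weakest the share was 95.9, 89.0, 43.6 and 6.67%. A similar fall was seen in intronic distal peaks (98.7, 88.2, 42.7 and 10.1%) and in promoter peaks (95.9, 82.3, 42.9 and 10.4%). A further 124 members were in 2 top lists, 42 in 1 and 1 in none. That last peak, near CG15283 (86.1), ranked 5130, 3856 and 4127. All 3 relaxed lists, which hold 30000 regions each, contained 352 members. Part of this overlap is built in, because the IDR set was made from these same replicates.

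Against intronic distal peaks, of which 55.8% were in all top lists, the share of members differed by -2.05 percentage points, which did not pass the test (two-sided Fisher's exact p = 0.503). Against promoter peaks, at 60.9%, the difference was -7.18 points (exact p = 0.0107). This second difference rested on replicate 3. Without that replicate it was 4.04 points in the opposite direction (exact p = 0.129), and in the upper 50% of peaks by signal it was 2.86 points higher (exact p = 0.324).

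The single replicates differed from each other. The top list of replicate 1 held 87.5% of members and 79.3% of promoter peaks (difference 8.26 points, exact adjusted p = 0.000675, two-sided Fisher's exact test over the 15 added comparisons). That of replicate 2 held 84.8 and 83.8% (exact adjusted p = 0.699). That of replicate 3 held 69.3 and 82.4%, a difference of -13.1 points (exact adjusted p = 3.82e-07). Over all members, the share was thus above that of promoter peaks in replicate 1 and below it in replicate 3. In the upper 50% of peaks by signal neither difference passed, at 3.24 points in replicate 1 (exact adjusted p = 0.576) and -1.67 points in replicate 3 (exact adjusted p = 0.738). Against intronic distal peaks no replicate differed past the threshold, with 83.9, 87.4 and 71.2% for those peaks. Replicate 3 also differed from the others in the number of regions with a q value of 0.01 or less, which was 2480, 3226 and 8812 in replicates 1, 2 and 3, and its part in the result was not tested.

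**Figure D3:**
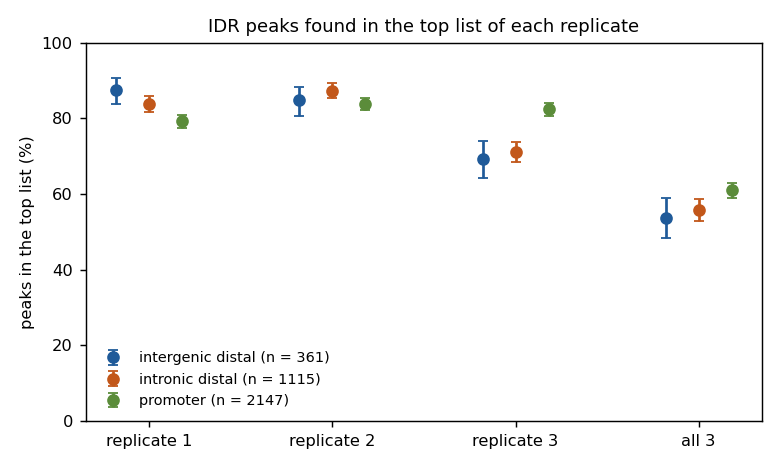
Share of IDR peaks found in the top list of each replicate and in all of them (y axis, percent), by class, with exact 95% intervals. Intergenic distal peaks are above promoter peaks in replicate 1 (87.5 against 79.3%) and below them in replicate 3 (69.3 against 82.4%), while intronic distal peaks stay close to them throughout.

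Replicate 1 listed no region at 9 members (2.49%), against 220 promoter peaks (10.2%, exact adjusted p = 8.25e-07) and 56 intronic distal peaks (5.02%, exact adjusted p = 0.115). In the upper 50% by signal the difference from promoter peaks was -2.46 points and did not pass (exact adjusted p = 0.738). Of the 9, 7 lay on 2R, among 62 members there (11.3%, 4.66 to 21.9), and 2 among the 299 on the other arms (0.669%, 0.0811 to 2.40). Promoter peaks were missing from replicate 1 on 2R and elsewhere at 13.2 and 9.52%, and intronic distal peaks at 7.73 and 4.45%. The arms were split after the values were seen, and what set 2R apart was not tested. The missing members included a strong one near CG13323 (941), which ranked 56 and 32 in replicates 2 and 3. The others had signals between 86.7 and 291. Only the member near Cdk4 (86.7) was missing from replicate 2 as well, and it ranked 2419 in replicate 3.

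The median rank of members was 1969, 1940 and 2530 in replicates 1, 2 and 3, against 1839, 1946 and 2321 for intronic distal peaks. The differences of 130, -6 and 209 ranks did not share a sign. Their mean of 111 had an exact permutation p of 0.5 over the 3 replicates, where the smallest possible p is 0.25.

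Summits of intergenic distal peaks stood in a narrow dip of G+C content. Windows of 50 bp to either side of the summit held 35.3% G+C (SD 8.41, n = 361) and windows of the same length 500 bp to the right held 41.3% (SD 9.53). The summit was lower in 243 of the 352 members that differed (69.0%, two-sided exact binomial p = 7.17e-13), and against the left flank in 245 of 352 (exact p = 1.38e-13). Intronic distal peaks showed a dip too, from 42.0 to 34.5%, and promoter peaks one from 45.7 to 37.4%. Background regions between genes went the opposite way, with 42.9% at the summit and 40.0% in the flank (exact binomial p = 2.93e-16). A dip was thus measured in these 3 classes of IDR peaks and not in the background regions, and exonic distal peaks were not measured here.

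**Figure D4:**
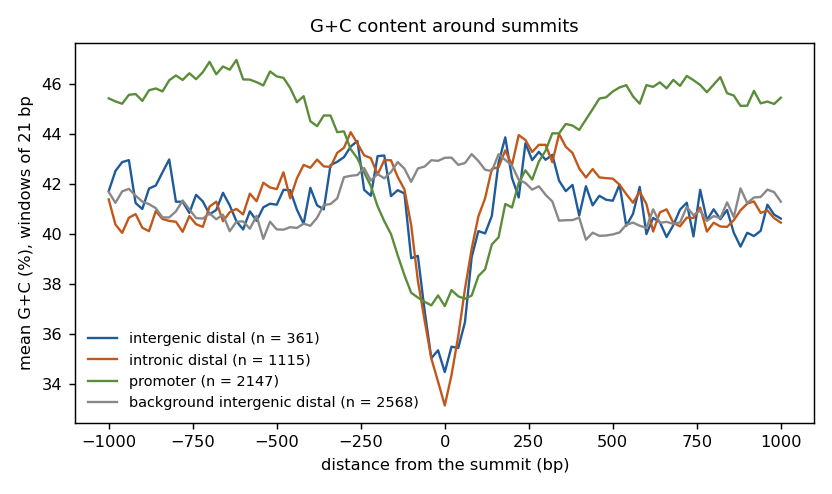
Mean G+C content (y axis, percent) in windows of 21 bp against the distance from the summit (x axis, bp) for intergenic distal, intronic distal and promoter IDR peaks and for background regions between genes. The lines of both distal classes fall together to a minimum at the summit, the promoter line has a wider trough, and the background line has no trough.

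Short words followed the same base composition. Of all 2080 words of 6 bases, counted with their reverse complement, 19 differed between the summit and the right flank at an adjusted p of 0.05 or less (0.913%, exact McNemar test, Benjamini-Hochberg adjustment over all words). Of these, 14 were more frequent at summits and consisted mostly of A and T, and 5 were less frequent and rich in G and C. AAAGTA stood in 62 summit windows and 20 flanks (17.2 against 5.54%, exact adjusted p = 0.00051), and ATTTAA in 28.0% of summit windows and 13.3% of flanks (exact adjusted p = 0.00051). The words named here are those with the highest ratio of summit to flank. Among them AATTTA stood in 23.3% of summits and TTTAAA in 21.9%, then ATATAA (18.6%) and AAACTA (15.8%), then CTTTAA (54 windows) and ACTTAA (14.4%), and last AACTAT (12.5%) and AAGTAT (11.9%), which completed the named words of this direction. Among those that were rarer, CCACCC was in 3 summits and 26 flanks (exact adjusted p = 0.00196). Whether any word goes beyond A+T content was not tested.

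The number of words called changed with the windows compared. By the exact McNemar test, 0 were called in the upper 50% of peaks by signal, where 99 of 2080 words had an unadjusted p under 0.05. The 99 are no more than that threshold allows where no word differs. With windows of 61 bp 0 were called too, and 158 of 2080 had such a p. At the main setting in all members 273 of 2080 did. The upper 50% held 155 members, fewer than the 361 in all, and the differences there moved both ways. They were 14.2 points for AATTTA against 13.0 in all members, 13.5 against 14.7 for ATTTAA, 10.3 against 11.6 for AAAGTA and 3.87 against 8.31 for ACTTAA. In contrast, 77 were called with windows about 2 times as long, and 14 against the left flank. AAAGTA was not called against the left flank (exact adjusted p = 0.247, difference 6.65 points instead of 11.6). In peaks that the search had not used, 18 of the 19 words passed in the same direction among intronic distal peaks and 17 of 19 among promoter peaks (exact McNemar test, adjusted over the 19 words within each class). Among background regions 0 passed in that direction and 6 in the opposite one. Intronic distal and promoter peaks also had the G+C dip and held more windows than the members. The part of base composition in this agreement was not tested. Only these 19 words were tested in the other classes, so no share over all words stands beside the counts. AAAGTA stood in 12.8% of intronic distal summits and 7.89% of their flanks, and in 8.76 and 9.27% for background regions.

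The DRE, the BEAF-32 core and Ohler motif 7 were rarer in members than in promoter peaks. Searched were 27 motifs in the same windows on both strands, and of the 54 comparisons with intronic distal and promoter peaks 3 passed (5.56%, two-sided Fisher's exact test, adjusted over the 54). All 3 were lower in members than in promoter peaks. Other settings also called motifs that were higher in members. These calls were 3 of 4 with windows of 61 bp and 3 of 9 with windows about 2 times as long, for CTCF against both classes and Caudal against promoter peaks. They were 1 of 4 each at a limit of 200 bp and with protein-coding gene bodies only, and 1 of 3 without replicate 3, for CTCF against intronic distal peaks. Against intronic distal peaks 0 of 27 passed, and 2 had an unadjusted Fisher's exact p under 0.05, the CTCF core and the Pho motif, GCCATNTT. The DRE, TATCGATA, bound by the promoter factor Dref, was in 3 members (0.831%) and in 4.75% of promoter peaks (exact adjusted p = 0.00285). The BEAF-32 core, CGATA, which the DRE contains, was in 41 members (11.4%) and in 26.7% of promoter peaks (exact adjusted p = 1.31e-09). Ohler motif 7, a core promoter element, was in 3 members and in 6.38% of promoter peaks (exact adjusted p = 2.14e-05). The BEAF-32 core was in 12.1% of intronic distal peaks and in 9.74% of background regions, against 11.4% in members. Motif 1 and Ohler motif 6, also core promoter elements, were each in 0.277% of members and in 1.16 and 0.699% of promoter peaks, which did not pass (exact adjusted p = 0.583 and 1). Motif 1 passed with windows about 2 times as long (0.277 against 2.75%, exact adjusted p = 0.0145). In the upper 50% by signal, with fewer windows, the DRE and Ohler motif 7 no longer passed. The DRE did not pass when any replicate was left out, nor Ohler motif 7 without replicate 2. Leaving out a replicate kept only peaks in the top lists of both others, which left fewer and stronger peaks. With windows of 61 bp the differences were -2.19 points for the DRE (exact adjusted p = 0.0525) and -2.43 points for Ohler motif 7 (exact adjusted p = 0.0589).

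Against their own flanks, the members differed in 2 of the 27 motifs (7.41%, exact McNemar test, adjusted over 27). The TATA box, TATAAA, was in 67 summit windows (18.6%) and 38 flanks (10.5%, exact adjusted p = 0.0461). It was in 19.0% of intronic distal, 16.5% of promoter and 11.2% of background windows. A repeat of CA, CACACACA, was in 1 summit and 12 flanks (3.32%, exact adjusted p = 0.0461). Neither passed with the fewer windows left without any 1 replicate or in the upper 50% by signal. The difference for the TATA box was 8.03 points in all members, 7.80, 8.80 and 9.56 points without replicates 1, 2 and 3, and 5.16 points in the upper 50%. For the repeat of CA it was -3.05 points in all members and -2.29, -1.85 and -2.94 without each replicate. The TATA box did not pass with windows of 61 bp, against the left flank or against the flank 1000 bp away either (exact adjusted p = 0.431, 0.482 and 0.166). The repeat of CA passed in these 3 settings (exact adjusted p = 0.0264, 0.0264 and 0.00742).

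Of the insulator motifs, the CTCF core was in 14 members (3.88%, 2.14 to 6.42) and 4 flanks, which did not pass (exact adjusted p = 0.191). Its share was 1.35% in intronic distal, 1.82% in promoter and 1.01% in background windows, and the differences did not pass either (exact adjusted p = 0.0952 and 0.154). With a limit of 200 bp the CTCF core passed against the flanks, at 21 summits and 6 flanks of 576 (2.60 points, exact adjusted p = 0.0367), and against intronic distal peaks (3.65 against 1.33%, exact adjusted p = 0.0288). Against intronic distal peaks it also passed with windows of 61 bp (3.32 against 0.717%, exact adjusted p = 0.0187), with windows about 2 times as long, with protein-coding gene bodies only and without replicate 3. The su(Hw) core, TGCATAC, was in 11 members and 6 flanks (exact adjusted p = 0.997). The Zelda motif, CAGGTAG, which marks early embryonic enhancers, was in 4 members and 1 flank, and GAGAGAG, bound by the GAGA factor, in 3 and 11 (exact adjusted p = 1 and 0.387). The Rel motif, to which Dorsal binds, was in 0 of 361 summit windows, a count that allows a share of up to 1.02%, and in 4 flanks (exact adjusted p = 0.562). A match of letters is not a bound site, and a window without one says nothing about the factor.

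**Figure D5:**
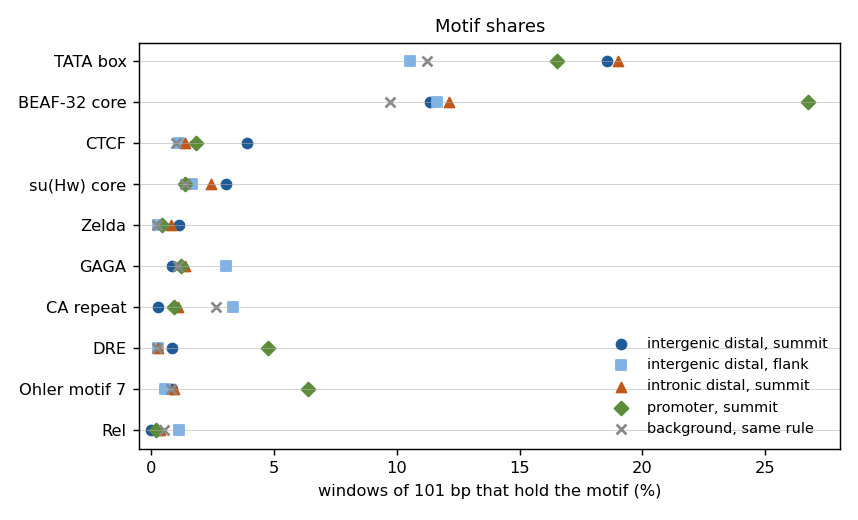
Share of summit-sized windows (50 bp to either side of the centre) that hold a motif (x axis, percent) for members at the summit and in the right flank, and at the summits of intronic distal peaks, promoter peaks and background regions. The BEAF-32 core, the DRE and Ohler motif 7 set promoter peaks apart (26.7, 4.75 and 6.38%), while the marks of members and intronic distal peaks lie close together for most motifs.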

How the data were processed

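ChIP-seq peak lists of 3 biological replicates of 1 group were analysed, on dm6. Per the file headers, the authors called regions for each replicate and on the pooled alignments, each with 1 further shared file, and made the IDR set from these lists. The sources used here do not give the aligner, the caller, their versions or the IDR threshold. Each deposited region carries a signal value, on a scale of its own list, and a −log10 q-value. The deposited replicate lists hold 30000 regions each and include background by design. Signal was used only to rank regions within a list, and depth is unknown.

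Summits were placed against Ensembl release 115 on BDGP6 patch 54 (19294 protein-coding starts). Background regions were the lower 50% of the pooled list of 23524 regions without an overlap of 1 bp or more with an IDR peak (11591 regions, of which 2568 met the location rule). A member was matched in a replicate to its strongest overlapping region (at least 1 bp), and an unlisted peak was given a rank below the last. Tests were Fisher's exact, exact McNemar, exact binomial and an exact permutation over replicates, all two-sided and called at 0.05 after Benjamini-Hochberg adjustment where many were made. Python 3.11.15 with numpy 2.4.6, pandas 2.3.3, scipy 1.17.1 and matplotlib 3.10.9 was used, and the tests were tried on simulated data.

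Named peaks were the 15 strongest in every top list, the 3 farthest from a start, those at the limit of 500 bp, up to 3 per gene list, all groups of 3 or more, and those by non-coding starts or elements. Peaks missing from replicate 1, those with a CTCF match and those near lncRNA:flam, Thor, Uhg1, Psc, chromosome 4 genes and lncRNA:CR45695 were added after their values were seen, unless a list holds them. The members and lists were chosen with earlier results of these data known. Alternatives changed the distance, gene bodies, signal range, windows, flanks, overlap and top-list size, and left out each replicate (then keeping the IDR peaks in the top lists of both others, except for top lists and ranks). Added after seeing the data were the 15 comparisons of listing, orientation and non-coding starts, and the words and G+C content in other classes. The dm3 lists and signal tracks were not used here.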

Additional observations from a re-analysis of the deposited data

How the results depend on the processing

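The G+C dip, the lower share of members with another IDR summit within 2 kb and the lower BEAF-32 share than in promoter peaks kept their direction and call under every alternative run. Other results moved. With a limit of 200 bp there were 576 members. The share in all top lists was then 1.95 percentage points higher than in intronic distal peaks and differed by -0.839 points from promoter peaks, the mean rank difference was -7.67, and 136 words were called. In the upper 50% by signal there were 155 members, the difference from promoter peaks in top lists was 2.86 points, and 0 motifs against flanks (0 at an unadjusted exact McNemar p under 0.05), 1 against classes and 0 words were called. Except for top lists and ranks, leaving out a replicate kept only peaks in the top lists of both others, so that fewer and stronger peaks remained. It gave 216 to 272 members, -2.84 to 0.0996 points against intronic distal and -9.90 to 4.04 against promoter peaks, 0 motifs against flanks each time (1 to 3 unadjusted), 1 to 3 motifs against classes and 5 to 9 words. With 50% reciprocal overlap the differences were 2.41 and -1.45 points. Against promoter peaks the difference was 0.306 with top lists of 5000 and -3.88 with a q of 0.01 or less in each replicate. Windows of 61 bp gave 1 motif and 0 words, and those about 2 times as long gave 9 motifs against classes and 77 words. The left flank gave 1 motif, and the flank 1000 bp away gave 1 motif and 8 words. With protein-coding gene bodies only, the element share differed by -0.0368 points from intronic distal peaks. Among single values, signs turned for top list 3 against intronic distal peaks (0.268) and the BEAF-32 core against flanks (2.26) at 200 bp, and in the upper 50% for peaks unlisted in replicate 1 (1.03) and top lists 1 and 2 (-0.238 and 1.20), all against intronic distal peaks. They also turned for the DRE against the left flank (-0.277) and the BEAF-32 core against the flank 1000 bp away (0.277). The cause of these changes was not tested. The peaks kept in the upper 50% and without a replicate were both fewer and stronger, and number and strength were not separated. Shares in a single top list are 100% by construction where that list chose the peaks, and say nothing there. No paired analysis was possible because there was 1 group. Depth could not be judged, and without an untagged control, signal from the tag or antibody alone was not measured here.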
